A study of Mus musculus with 69 samples.

Results

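Prolactin and 5 genes that act on, or answer to, the cells that make it were followed through 69 RNA sequencing libraries of mouse pituitary, hypothalamus and ovary. The 6 genes, Prl, Drd2, Gal, Vip, Prlr and Th, were taken by symbol from 55964 gene IDs in the deposited count tables, and all 6 were found. The animals were C57BL/6J females collected at proestrus. WT mice carry the normal Zeb1 gene, 200H mice are heterozygous and 200M mice homozygous for an allele with point mutations in the sites in Zeb1 that miR-200a and miR-200b are predicted to bind. The allele is carried in the germline, so every cell type has it, and it was made in 2 embryonic stem cell clones. The clone behind each library is not given in the sources used here. The young cohort was 8 to 12 weeks old and virgin, and the older cohort was 28 to 36 weeks old and had been through a breeding trial. The authors report that most homozygous females had no litter in that trial. In the older cohort, the homozygous genotype therefore goes together with a different history of pregnancy and lactation. The part of that history in the older results, and in the differences between cohorts, was not tested. Each tissue, cohort and genotype had 4 libraries from different mice, except young WT pituitary, older 200M pituitary and older 200M hypothalamus, which had 3.

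Prolactin is secreted by the lactotropes of the anterior pituitary. It is held down mainly by dopamine from the hypothalamus. Dopamine neurons need tyrosine hydroxylase (Th) to make dopamine, which they release into the portal blood. The D2 dopamine receptor (Drd2) on lactotropes answers by lowering prolactin synthesis and release. The peptides galanin (Gal) and vasoactive intestinal peptide (Vip) are known to stimulate lactotropes, and both can also be made within the pituitary. Prolactin acts through its receptor (Prlr), a cytokine receptor coupled to JAK2 and STAT5, and in rodents it sustains the corpus luteum of the ovary.

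In build GRCm38 Prl lies at chr13:27057570-27065205, Drd2 at chr9:49340627-49408177, Gal at chr19:3409915-3414544, Vip at chr10:5639218-5647617, Prlr at chr15:10177238-10349180 and Th at chr7:142892752-142931128. Counts cover all exons of a gene, so the isoforms of Prlr and Drd2 were not separated. Exons of Prlr overlap those of the readthrough gene model Gm21973 on the same strand, and reads in the shared exons can be left out of either count.

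Promoters are shown for the genes that hold a motif searched for here: Prl, Vip, Th and Prlr. Prl fell in pituitary, and Th and Prlr were raised in 200M pituitary. Vip was called as raised in young 200M pituitary only. Each stretch is 300 bases from RefSeq (GRCm38.p6), from 250 bases before to 50 bases after the annotated start, written along the gene's own strand. Capitals mark matches, on either strand, to the ZEB1 box CAGGTG or CAGGTA, to TATNCAT, the site of the lactotrope factor POU1F1, and to TGACGT, the core of the cAMP response element. The stretches lie at chr13:27057320-27057619 for Prl, chr10:5638968-5639267 for Vip, chr7:142899946-142900245 for Th, and chr15:10223656-10223955 for the second of 3 annotated starts of Prlr.
Prl: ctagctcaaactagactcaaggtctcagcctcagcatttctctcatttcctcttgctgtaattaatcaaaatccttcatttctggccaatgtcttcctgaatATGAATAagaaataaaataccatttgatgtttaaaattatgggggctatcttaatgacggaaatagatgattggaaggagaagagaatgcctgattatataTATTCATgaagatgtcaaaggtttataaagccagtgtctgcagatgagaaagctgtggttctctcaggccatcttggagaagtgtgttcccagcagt
Vip: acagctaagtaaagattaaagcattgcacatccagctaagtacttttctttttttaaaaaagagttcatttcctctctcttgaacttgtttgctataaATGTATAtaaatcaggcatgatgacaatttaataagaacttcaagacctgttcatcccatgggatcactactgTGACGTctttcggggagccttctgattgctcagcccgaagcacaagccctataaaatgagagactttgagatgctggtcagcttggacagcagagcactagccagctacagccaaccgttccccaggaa
Th: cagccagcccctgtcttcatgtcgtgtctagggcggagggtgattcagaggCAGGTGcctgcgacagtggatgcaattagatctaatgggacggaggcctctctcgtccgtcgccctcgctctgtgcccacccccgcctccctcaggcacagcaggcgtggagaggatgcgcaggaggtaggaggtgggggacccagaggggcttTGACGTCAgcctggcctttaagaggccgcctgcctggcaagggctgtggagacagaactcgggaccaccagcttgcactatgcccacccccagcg
Prlr: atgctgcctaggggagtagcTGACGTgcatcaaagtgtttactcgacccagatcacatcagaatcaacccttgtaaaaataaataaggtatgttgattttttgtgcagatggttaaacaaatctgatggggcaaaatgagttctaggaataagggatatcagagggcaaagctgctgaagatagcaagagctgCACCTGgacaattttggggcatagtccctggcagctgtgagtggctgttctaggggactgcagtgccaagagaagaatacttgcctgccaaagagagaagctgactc
The Prl stretch holds 2 matches to TATNCAT and no ZEB1 box. The Vip stretch also holds a match to TATNCAT and no ZEB1 box. CAGGTG, the only box found, was in the Th stretch and in that of Prlr. The pair of matches in Th overlap as the palindrome TGACGTCA, and Vip and Prlr each hold a single TGACGT. No match to any of these motifs was found in the Drd2 or Gal stretch or at the other Prlr starts. Of 32851 mouse promoters of this length, 20.2% held CAGGTG, 12% CAGGTA, 8.84% TATNCAT and 7.51% TGACGT, so a match describes the sequence and marks no site.

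Library totals, in units of 1e6 counts, ran from 3.32 to 14.66 and were lowest in young hypothalamus (3.32 to 5.14). Levels are given as CPM, the counts of a gene per 1e6 counts of its library, with totals scaled by the TMM method, and a gene is said to be called where the adjusted p of edgeR's quasi-likelihood test over all genes tested was under 0.05. Zeb1 itself rose in pituitary of both 200M groups, by 0.52 (SE 0.0612) on the log2 scale in young and 0.55 (SE 0.0855) in older mice, and was not called in hypothalamus or ovary. The lactotrope factor Pou1f1 was present in pituitary (153 to 968 CPM over all libraries) and at most 0.638 CPM in hypothalamus.

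In pituitary, Prl fell in 200H and 200M mice of both cohorts, while Gal and Prlr rose. Drd2 fell in young mice, and Th rose in 200M mice of both cohorts from a level near the limit of detection. In young 200M pituitary 6 of the 6 genes were called, where 21.5% of 18199 genes tested were called. In older 200M pituitary 4 of 6 were called (Prl, Gal, Prlr and Th), against 21.4% of all genes. In 200H pituitary, where Th was too low to be tested, 4 of 5 genes were called in young mice (12.3% of all genes). In older 200H mice 3 of 5 were called (12.2%). The 6 genes and the lists below were chosen with earlier results of these data known. Their shares beside those of all genes therefore do not test whether they changed more often.

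Prl was the most abundant of the 6 transcripts by far. In young pituitary it stood at 133605, 135234 and 158138 CPM in WT, at 47650, 61793, 28586 and 50571 CPM in 200H, and at 61309, 39861, 44780 and 38998 CPM in 200M libraries. Every 200H and 200M library lay below every WT library, and the heterozygous and homozygous libraries overlapped. The difference on the log2 scale was -1.61 for 200M (SE 0.117, edgeR adjusted p = 2.86e-07), and for 200H -1.58 with SE 0.177 (adjusted p = 8.25e-05), so that WT had 3.05 and 2.99 times the level of 200M and 200H.

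In older pituitary Prl was 210925, 205956, 168298 and 194235 CPM in WT, 119147, 81133, 74338 and 58696 CPM in 200H, and 72361, 52927 and 59096 CPM in 200M. Again neither mutant group overlapped WT. The difference was -1.66 for 200M (SE 0.126, edgeR adjusted p = 3.4e-06), and for 200H -1.22 with SE 0.184 (adjusted p = 0.000977). The fall in 200M did not differ detectably between cohorts (older minus young -0.11, SE 0.185, adjusted p = 0.959), where 0.0273% of genes differed. In bulk tissue, fewer lactotropes and less prolactin transcript per lactotrope cannot be told apart.

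Because Prl made up 12.5% to 14.5% of all counts in young WT pituitary and 15.8% to 19.5% in older WT, its fall frees counts for every other gene. Without the TMM factors the median of all genes in 200M against WT moved to 0.12 in young and 0.16 in older pituitary. The share of called genes that were higher in 200M then went from 53.5% to 76.8% in young and from 54.4% to 83.9% in older mice. The fall of Prl was then -1.49 in each cohort and was still called. Growth hormone (Gh), the other very abundant pituitary transcript, differed by 0.10 (SE 0.108, adjusted p = 0.559) in young and 0.00 (SE 0.121, adjusted p = 0.993) in older 200M pituitary.

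**Figure D1:**
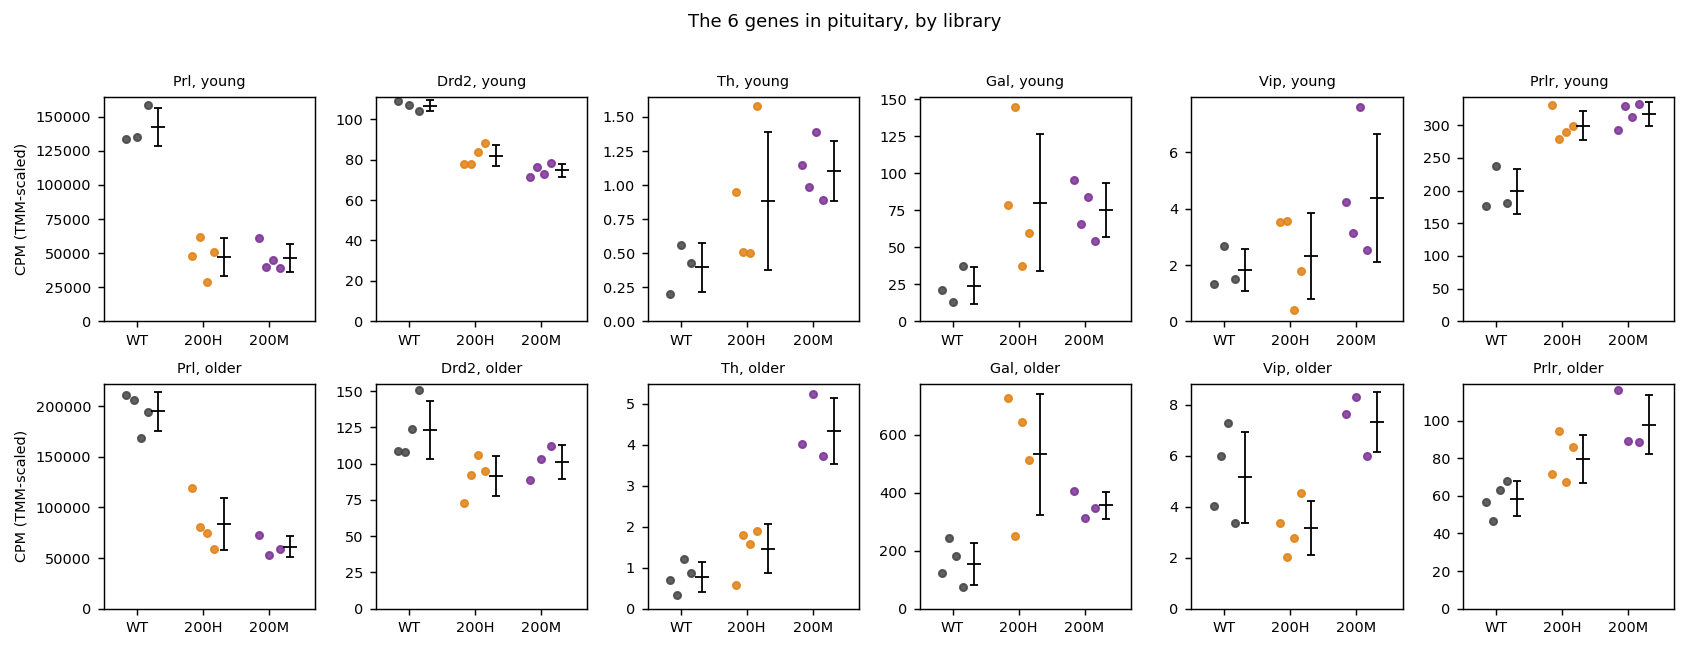
Level of each gene in every pituitary library, as TMM-scaled CPM on a linear axis from 0, for young (upper row) and older mice (lower row); bars give the mean and SD of 3 or 4 libraries. Prl in 200H and 200M lies below all WT libraries in both cohorts, and Th in older 200M libraries (3.73 to 5.24 CPM) lies above all others.

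Other lactotrope markers did not move as 1 group. Of the 4 markers besides Prl and Drd2, Angpt1 fell in young 200M pituitary by 1.35 on the log2 scale and in older by 0.89. Edil3 rose by 0.33 and 0.59, and Cckbr was low and not called. Pou1f1 fell in young 200M (-0.39, SE 0.0869, adjusted p = 0.00492) and was not called in older mice (0.06, SE 0.133, adjusted p = 0.804). The summed level of the 4 markers was 1019 to 1346 CPM in young WT and 888 to 984 CPM in young 200M. In older mice it was 323 to 376 CPM in WT and 349 to 406 CPM in 200M. Most of that sum was Pou1f1, which averaged 806 CPM in young WT and 610 CPM in young 200M, and 214 and 223 CPM in older mice. The sum therefore mainly follows Pou1f1. The somatotrope list had 0 of 3 markers called in either cohort. The thyrotrope list had 2 of 3 raised in both. Tshb, the thyrotrope hormone subunit, was not called in either cohort (0.34, SE 0.12, in young and 0.13, SE 0.115, in older 200M). The neuron list had 2 of 3 raised in young and 3 of 3 in older 200M mice. Of 6 corticotrope and melanotrope markers 2 were raised in young and 4 in older 200M, among them Pomc (1.02, SE 0.209, adjusted p = 0.00469 in older mice). Their summed level was 999 to 1365 CPM in young WT and 1079 to 1506 CPM in young 200M, and 9145 to 12475 CPM in older WT and 11931 to 25277 CPM in older 200M. The macrophage gene Csf1r rose by 0.68 in young and 0.51 in older 200M. The marker Scn7a rose by 0.50 in young and 0.47 in older 200M. In older 200H it ran from 1.85 to 49.7 CPM, against 35.4 to 52.6 CPM in WT. Nkx2-1 ran from 0 to 4.8 CPM there (WT 2.39 to 4.47) and Pomc from 3743 to 10480 CPM (WT 8789 to 12017). Sox2, at 14.8 to 18.1 CPM, was even. Whether the low values came from the same library was not examined. The part of these shifts, and of this spread, in the results on the 6 genes was not tested.

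The D2 receptor, through which dopamine restrains lactotropes, was lower in young mutant pituitary. Drd2 was 109, 107 and 104 CPM in WT, 77.8, 77.7, 83.9 and 88.2 CPM in 200H, and 71.3, 76.3, 72.9 and 78.2 CPM in 200M. Neither mutant group overlapped WT. The differences were -0.50 for 200M (SE 0.0663, edgeR adjusted p = 7.2e-05), and for 200H -0.37 with SE 0.0759 (adjusted p = 0.00607). The 200H call was lost on plain library totals (-0.25, adjusted p = 0.058).

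In older pituitary Drd2 was 109, 108, 124 and 151 CPM in WT, 73.2, 91.9, 106 and 95.2 CPM in 200H, and 88.5, 103 and 112 CPM in 200M. The 200M libraries overlapped WT and the 200H libraries lay just below it. Neither difference was called (200M -0.28, SE 0.123, adjusted p = 0.131; 200H -0.43, SE 0.129, adjusted p = 0.0505), though the 200H difference passed with DESeq2 (-0.43, p adjusted to 0.0214) and without 200H replicate 3 (-0.50, p adjusted to 0.0456), and the cohorts did not differ detectably (0.17, SE 0.143, adjusted p = 0.852).

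Of 20 genes of D2 receptor coupling, 9 rose and 1 fell among the 20 tested in young 200M pituitary, where 21.5% of all genes were called, with a median log2 difference of 0.30 against 0.00 over all genes. In older 200M, where 21.4% of all genes were called, 10 rose and 2 fell among 19 tested (median 0.31, all genes -0.01). Gnai1, an inhibitory G protein subunit, rose by 0.78 and 0.77 on the log2 scale in young and older mice. Adcy2, an adenylyl cyclase, rose by 0.75 and 0.79, and Arrb1, a beta-arrestin, by 0.52 and 0.80. Adcy6, another cyclase of the family, fell by 0.46 and 0.52.

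Th is a gene of catecholamine neurons and was barely detected in WT pituitary. In older mice it was 0.695, 0.342, 1.21 and 0.873 CPM in WT, 0.579, 1.81, 1.59 and 1.9 CPM in 200H, and 4.03, 5.24 and 3.73 CPM in 200M. All 200M libraries lay above all libraries of the other genotypes, a difference from WT of 2.61 (SE 0.349, adjusted p = 0.000295, edgeR). The 200M libraries exceeded 200H by 1.56 (SE 0.337), which edgeR did not call (adjusted p = 0.106) but DESeq2 did (1.57, p adjusted to 0.0499), as did edgeR without 200H replicate 2 (1.70, p adjusted to 0.0278). In young pituitary Th was 0.204, 0.56 and 0.429 CPM in WT and 1.15, 0.989, 1.39 and 0.888 CPM in 200M. These groups did not overlap (1.50, SE 0.466, adjusted p = 0.0322). That call was lost without WT replicate 1 (1.18, adjusted p = 0.162) or the WT library whose header number its title does not give (1.56, p adjusted to 0.0976). The dopamine transporter Slc6a3, a marker of dopamine neurons, was at most 0.171 CPM in older pituitary, and at 0 in all older 200M libraries. In young pituitary it averaged 0.216 CPM in WT, 0.206 CPM in 200H and 0.224 CPM in 200M. Its highest values there were 0.336, 0.737 and 0.495 CPM in the same order. Lmx1b, another such marker, averaged 0.839 CPM in older WT and 1.5 CPM in older 200M. In young pituitary Lmx1b averaged 3.4 CPM in WT and 2.09 CPM in 200M. The part of such neurons in the pituitary Th values was not tested.

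Galanin rose in pituitary. Gal was 21, 13.4 and 37.7 CPM in young WT, 78.8, 145, 37.6 and 59.4 CPM in 200H, and 95.5, 65.8, 83.8 and 54.6 CPM in 200M. The 200M libraries all exceeded WT, whereas 200H replicate 3 equalled the highest WT library to within 0.1 CPM. The differences were 1.66 for 200M (SE 0.253, edgeR adjusted p = 0.000259), and for 200H 1.75 with SE 0.401 (adjusted p = 0.0122). The 200H call was lost without WT replicate 1 (1.66, adjusted p = 0.0641) or WT replicate 2 (1.47, adjusted p = 0.057).

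In older pituitary Gal was 122, 243, 181 and 74.7 CPM in WT, 729, 251, 644 and 512 CPM in 200H, and 408, 313 and 349 CPM in 200M. Both mutant groups lay above WT. The differences were 1.20 for 200M (SE 0.283, edgeR adjusted p = 0.0105), and for 200H 1.78 with SE 0.351 (adjusted p = 0.00574), and 200M did not differ detectably from 200H (-0.59, SE 0.26, adjusted p = 0.445).

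Vip was low in pituitary, and its call rested on single libraries. In young mice it was 1.33, 2.69 and 1.5 CPM in WT, 3.53, 3.56, 0.399 and 1.79 CPM in 200H, and 4.23, 3.13, 7.62 and 2.54 CPM in 200M. The 200M and WT libraries overlapped, and the difference of 1.31 (SE 0.389, adjusted p = 0.026, edgeR) was lost without 200M replicate 3, the highest library (0.89, adjusted p = 0.0989), and without WT replicate 1 (1.12, p adjusted to 0.115) or the WT library whose header number its title does not give (1.19, p adjusted to 0.0974). In older mice Vip was 3.38 to 7.28 CPM in WT and 6.01 to 8.31 CPM in 200M, and was not called (0.54, SE 0.259, adjusted p = 0.159). It was also not called in 200H of either cohort.

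The prolactin receptor rose in pituitary. Prlr was 177, 238 and 181 CPM in young WT, 330, 278, 289 and 299 CPM in 200H, and 292, 329, 313 and 332 CPM in 200M. Both mutant groups lay above WT, by 0.69 for 200M (SE 0.0922, edgeR adjusted p = 8.59e-05), and for 200H 0.60 with SE 0.102 (adjusted p = 0.00182). Levels in older pituitary were 56.6, 46.5, 63.1 and 68.1 CPM in WT and 116, 89.1 and 88.4 CPM in 200M, again without overlap (0.74, SE 0.135, adjusted p = 0.00238). Older 200H libraries (67.2 to 94.6 CPM) overlapped WT, and their difference of 0.46 (SE 0.135, adjusted p = 0.044) was lost without WT replicate 1, 2 or 3 or 200H replicate 2 or 4 (0.35 to 0.49).

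Among 25 other receptors for signals that act on lactotropes, 8 rose and 2 fell of 19 tested in young 200M pituitary (median 0.26, all genes 0.00). In older 200M 8 rose and 0 fell of 18 (median 0.38, all genes -0.01). Of all genes 21.5% and 21.4% were called in these comparisons. Adcyap1r1, the receptor for the peptide PACAP, went from 15.4 to 46.1 CPM on average in young and from 23 to 75.5 CPM in older mice. Trhr, the receptor for thyrotropin-releasing hormone, rose by 1.13 and 1.42 on the log2 scale. It is also a thyrotrope marker. The GABA-B receptor subunits Gabbr2 (1.19 and 2.28) and Gabbr1 (0.43 and 0.41) rose as well.

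Of 16 transcription factors of the lactotrope lineage, 1 rose and 5 fell among 14 tested in young 200M (median -0.27, all genes 0.00), where 21.5% of all genes were called. In older 200M 2 rose and 0 fell among 13 (median -0.08, all genes -0.01), a smaller share than the 21.4% of all genes called. Nr3c1, the glucocorticoid receptor, rose in both (0.62 and 0.80). Neurod4 (-0.51, adjusted p = 0.000516) and Pgr, the progesterone receptor (-0.56, adjusted p = 0.00503), fell in young mice and were not called in older mice, where they differed by -0.38 and -0.36. The cohort difference was not called for Pou1f1 (0.39, SE 0.174), Neurod4 (0.09, SE 0.317) or Pgr (0.14, SE 0.219).

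The 5 genes whose pituitary levels most resembled Prl, among 8771 genes with at least 10 CPM in both cohorts, were Sh3d19, Gmppa, Mmgt2, Hepacam2 and Fam102a. Their Pearson correlations with Prl on log2(CPM + 1) were 0.94 to 0.99 over 11 young and 0.94 to 0.96 over 11 older libraries. All these libraries share the genotype difference in Prl, so the values describe a shared pattern over genotypes. None of the 25 genes of the Prl family other than Prl was high enough to be tested in any tissue, and together they had at most 99 counts in a library.

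edgeR called none of the 6 genes between heterozygous and homozygous pituitaries, where 0.0383% of genes in young and 0.121% in older mice were called. For Prl the difference of 200M from 200H was -0.03 (SE 0.185) in young and -0.45 (SE 0.202) in older mice. In older pituitary, DESeq2 called Vip (1.20, p adjusted to 0.0423) and Th (1.57, p adjusted to 0.0499) as higher in 200M. Without 200H replicate 2, edgeR called Gal (-0.82, p adjusted to 0.0044), Vip (1.00, p adjusted to 0.0455) and Th (1.70, p adjusted to 0.0278).

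**Figure D2:**
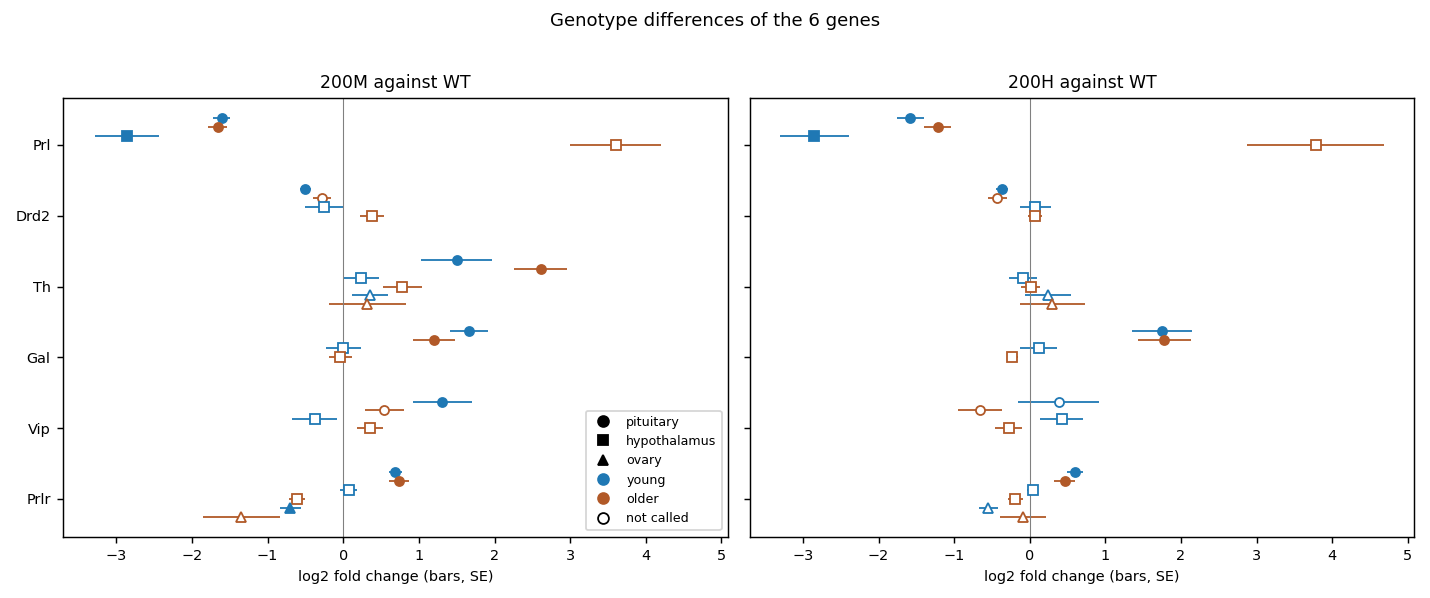
Log2 fold change against WT, with its SE, of each gene in 200M (left) and 200H (right); filled points were called and open points were not, circles are pituitary, squares hypothalamus and triangles ovary, and colours give the cohort. Pituitary points of Prl lie left of 0 and those of Gal and Prlr right of 0 in both panels, whereas Prl in hypothalamus takes opposite signs in the cohorts.

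In hypothalamus edgeR called no genotype difference of the 5 genes other than Prl in any of the 6 comparisons. DESeq2 called Prlr in older 200M against WT, and Vip (0.62, p adjusted to 0.0449) and Prlr (-0.44, p adjusted to 0.0309) in older 200M against 200H. Across all genes edgeR called few: 0.02% in young 200M, 0.0202% in young 200H, 0.00622% in older 200M, and 0% in older 200H and between 200M and 200H of either cohort. DESeq2 called 619 genes in older 200M, 668 between older 200M and 200H, 5 in older 200H and 0 between young 200M and 200H. At unadjusted p under 0.05, edgeR had 445 genes in older 200H, 3144 between older 200M and 200H and 682 between young 200M and 200H. Of the 5 genes, Drd2, Prlr and Th in older 200M reached that level against WT, Gal did so in older 200H, and none did in young mice.

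Th, the enzyme of the dopamine neurons that restrain prolactin, was 18.4, 12.4, 15 and 20.2 CPM in young WT and 11.9, 27.2, 27.9 and 12.6 CPM in young 200M hypothalamus. The groups overlapped (0.24, SE 0.236, adjusted p = 0.905, edgeR). In older mice Th was 61.9, 50.1, 55.2 and 47.1 CPM in WT, 67.9, 43.4, 52.1 and 53.2 CPM in 200H, and 152, 69.3 and 57 CPM in 200M. The 200M difference of 0.78 (SE 0.258) was not called (adjusted p = 0.166), and replicate 1 stood far above the other 200M libraries.

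Midbrain dopamine neurons also use Th, and the summed level of 4 of their markers (Slc6a3, Pitx3, En1 and Lmx1b) was highest in the 200M libraries highest in Th. The sum in older 200M was 209 CPM in replicate 1 and 32.9 and 35.6 CPM in the others, against 10.2 to 45.1 CPM in WT. In young 200M the sum was 40.8 and 34 CPM in replicates 2 and 3, the libraries highest in Th, and 6.92 and 17.5 CPM in replicates 1 and 4. Most of that sum was the dopamine transporter Slc6a3, which averaged 82.2 CPM in older 200M and 15.9 CPM in older WT (2.38, SE 0.707, adjusted p = 0.138). En1 averaged 3.38 CPM in older 200M and 0.455 CPM in older WT (2.90, SE 0.845, edgeR adjusted p = 0.134), and Pitx3 0.578 and 0.133 CPM. Lmx1b averaged 6.36 and 6.24 CPM in the same groups, and no marker of the list was called. The part of those cells in the Th values was not tested. Of 20 genes of dopamine synthesis, storage and uptake, 0 were called among 14 tested in young and 15 in older 200M hypothalamus (medians 0.04 and 0.17, all genes 0.00 and 0.02), with 0 and 5 at unadjusted p under 0.05.

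Vip in hypothalamus was 4.25 to 7.66 CPM in young WT and 2.91 to 5.76 CPM in young 200M, and 12.7 to 20.5 CPM in older WT and 19.5 to 28.1 CPM in older 200M. Each pair overlapped, with differences of -0.38 (SE 0.301) and 0.35 (SE 0.174). Gal was 5.95 to 9.5 CPM in young WT and 6.1 to 8.32 CPM in young 200M, a difference of 0.00 (SE 0.229). In older hypothalamus it was 49 to 53.9 CPM in WT and 41.6 to 68.3 CPM in 200M (-0.04, SE 0.153). Of 22 other hypothalamic peptides, 0 were called among 16 tested in young and 19 in older 200M mice, with 5 and 4 at unadjusted p under 0.05.

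Drd2 in hypothalamus, where it is also carried by neurons, differed by -0.26 (SE 0.252) in young and 0.38 (SE 0.159) in older 200M mice. The summed level of striatal projection neuron markers was uneven in older 200M. It was 256 CPM in replicate 3 and 92.7 and 118 CPM in replicates 1 and 2, against 100 to 115 CPM in WT. Among these markers Ppp1r1b averaged 19.7 CPM in older WT and 45.9 CPM in older 200M, and was not called. The part of those cells in the Drd2 values was not tested. Prlr was 121 to 156 CPM in young WT and 114 to 182 CPM in young 200M. In older mice it was 50.3, 58.2, 50 and 54.6 CPM in WT and 40.4, 34.2 and 30.7 CPM in 200M. The older 200M libraries all lay below WT, but the difference of -0.61 (SE 0.109) was not called (adjusted p = 0.098, edgeR). It was called by DESeq2 (-0.62, p adjusted to 0.000232) and without WT replicate 1 (-0.65, p adjusted to 0.0345) or 200M replicate 1 (-0.73, p adjusted to 0.0311).

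Prolactin transcripts in hypothalamus went opposite ways in the cohorts. In young mice Prl was 17.4, 4.22, 24.5 and 23.8 CPM in WT, 0, 4.02, 0 and 5.49 CPM in 200H, and 0.277, 2.52, 2.91 and 3.53 CPM in 200M. The 200M libraries lay below WT and a 200H library overlapped it. The differences were -2.86 for 200M (SE 0.428, edgeR adjusted p = 0.00605), and for 200H -2.85 with SE 0.453 (adjusted p = 0.004), and both were lost with DESeq2 (adjusted p = 0.726 and 0.994). The 200M call was also lost without WT replicate 1 (-2.86, p adjusted to 0.0681) or 3 (-2.66, p adjusted to 0.0719).

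In older hypothalamus Prl was 0, 0.0902, 1.98 and 0.467 CPM in WT, 7.82, 2.76, 2.02 and 24.7 CPM in 200H, and 6.91, 10.7 and 6.77 CPM in 200M. Both mutant groups lay above WT, with differences of 3.60 for 200M (SE 0.599, edgeR adjusted p = 0.098), and for 200H 3.78 with SE 0.907 (adjusted p = 1), neither of them called. The 200M difference was called without WT replicate 1 (3.22, p adjusted to 0.0301), WT replicate 3 (5.26, p adjusted to 0.00271) or 200M replicate 1 (3.70, p adjusted to 0.0428). The 200M effect differed between cohorts by 6.46 (SE 0.802, adjusted p = 0.000224), where 0.154% of genes differed.

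Growth hormone, which hypothalamus does not make in quantity, lay above WT beside Prl in older 200H and 200M hypothalamus. Of these differences only that of Gh in 200M was called. Gh was 1.32 to 6.17 CPM in young WT, 0 to 0.608 CPM in young 200H and 0.277 to 3.2 CPM in young 200M, which overlapped WT and was not called (-1.02, SE 0.463, adjusted p = 0.871). In older mice it was 0 to 0.495 CPM in WT, 1.26 to 39.8 CPM in 200H and 6.52 to 7.93 CPM in 200M, and it was the single gene called in older 200M hypothalamus (4.98, SE 0.478, adjusted p = 0.00296). The older library highest in Prl, 200H replicate 4, held 248 Prl and 400 Gh counts. Pou1f1 was at 0 in all older 200M hypothalamus libraries, where Prl averaged 8.12 CPM. In older 200M pituitary Pou1f1 averaged only 223 CPM beside 61461 CPM of Prl. A value of 0 at this depth therefore does not bear on where the Prl transcripts came from. The somatotrope list (Gh, Ghrhr and Pappa2) summed to 1.62 to 2.64 CPM in older WT and 8.13 to 11 CPM in older 200M. That sum includes Gh itself. Pappa2 averaged 1.99 CPM in older WT and 2.08 CPM in older 200M, and Ghrhr 0.0458 and 0.052 CPM. In young mice the sum of the list was 4.49 to 8.16 CPM in WT and 4.7 to 6.1 CPM in 200M, within the WT range. Tshb, the hormone subunit of thyrotropes, went opposite to Prl in young 200M, from 0.225 to 7.92 CPM on average (4.81, SE 0.75, adjusted p = 0.00642), and was not called in older 200M (0.14, SE 0.309, adjusted p = 0.852). The part of pituitary tissue in the hypothalamic Prl values was not tested.

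**Figure D3:**
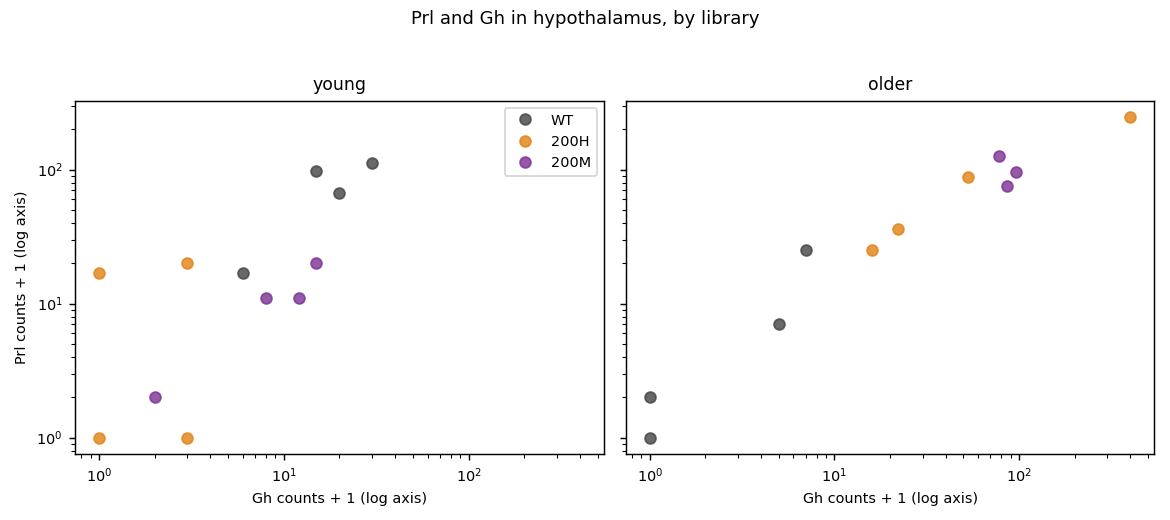
Counts of Prl against counts of Gh in every hypothalamus library, each plus 1 on log axes, for young (left) and older mice (right), coloured by genotype. Older WT libraries had 0 to 24 Prl and 0 to 6 Gh counts, and older 200M libraries 74 to 126 Prl and 77 to 95 Gh counts.

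The 200M effect on Prlr and Gal differed between pituitary and hypothalamus in both cohorts, and that on Vip in young mice. In young mice the pituitary effect exceeded the hypothalamic by 1.65 for Gal (SE 0.4, adjusted p = 0.00657), 1.68 for Vip (SE 0.503, adjusted p = 0.0296) and 0.62 for Prlr (SE 0.16, adjusted p = 0.0109), where 10.5% of all genes differed. In older mice it did so by 1.24 for Gal (SE 0.377, adjusted p = 0.0298) and 1.35 for Prlr (SE 0.186, adjusted p = 7.65e-05), against 17.5% of all genes, and was not called for Vip (0.20, SE 0.327, adjusted p = 0.729). For Drd2 the older pituitary effect was lower than the hypothalamic by -0.66 (SE 0.216, adjusted p = 0.0424), a call lost on plain library totals (-0.52) and when any of 9 libraries was left out. The Gal call in older mice and the Vip call were also lost when single libraries, named in the closing section, were left out. Whether libraries of different tissues came from the same mice is not given in the sources used here, and the test took them as independent. With the replicate number as a block across tissues, which leaves out libraries without a partner, the young calls of Vip (1.79, p adjusted to 0.103) and Prlr (0.51, p adjusted to 0.113) were lost. The tissues were dissected and scaled apart, so these differences are relative to the other genes of each tissue.

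In ovary only Prlr and Th of the 6 genes were high enough to be tested. Prl, Drd2, Gal and Vip were at most 2.63 CPM there, apart from older WT replicate 1 with 24.3 CPM of Prl and 13.8 CPM of Gh.

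Prlr was lower in ovary of young 200M mice, the opposite of its change in pituitary. It was 1410, 962, 1353 and 1253 CPM in WT, 871, 993, 832 and 665 CPM in 200H, and 784, 929, 534 and 806 CPM in 200M. All 200M libraries lay below WT and 200H overlapped it. The difference was -0.70 in 200M (SE 0.142, adjusted p = 0.0213, edgeR), where 2.58% of genes were called, and -0.55 in 200H (SE 0.127, adjusted p = 0.307), where 0.0051% were. The 200M call was lost without WT replicate 1, 3 or 4 or 200M replicate 1 (-0.72 to -0.64, adjusted p 0.0528 to 0.0823). The pituitary effect exceeded the ovarian by 1.39 (SE 0.201, adjusted p = 0.000119), against 10.1% of all genes.

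In older ovary Prlr was 464, 1246, 746 and 649 CPM in WT, 635, 1063, 645 and 545 CPM in 200H, and 397, 193, 93.7 and 535 CPM in 200M. The 200M libraries overlapped WT and lay below 200H. Neither difference was called (-1.35 from WT, SE 0.51, adjusted p = 0.224, where 2.71% of genes were called; -1.27 from 200H, SE 0.476, adjusted p = 0.291, where 1.61% were). No gene was called between 200H and WT in older ovary (0%), or between 200M and 200H in young ovary (0%). DESeq2 called 21 and 0 there, and 1160 and 648 genes had an unadjusted p under 0.05 in edgeR. The pituitary and ovarian effects on Prlr differed by 2.11 in older mice (SE 0.606, adjusted p = 0.0548), where 5.77% of genes differed. The cohorts did not differ detectably in ovary (-0.67, SE 0.56, adjusted p = 0.651), where 0.197% of genes did.

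Of 5 luteal markers, 2 fell in 200M ovary of each cohort beside Prlr. The summed level of Star, Cyp11a1, Hsd3b1, Akr1c18 and Lhcgr was 11687 to 30254 CPM in older WT and 4977 to 12597 CPM in older 200M, and the library lowest in Prlr, 200M replicate 3, was the lowest in that sum. In young ovary the sum was 6319 to 8241 CPM in WT and 4769 to 7614 CPM in 200M. Most of the young sum was Hsd3b1 (4165 CPM on average in WT and 3992 CPM in 200M) and Lhcgr (2264 and 1992 CPM), neither of them called. The markers called in young ovary were Cyp11a1 (1024 and 635 CPM) and Akr1c18 (83.1 and 6.64 CPM). The 5 genes most like Prlr over 12 young and 12 older ovary libraries, among 9508 genes, were Trp53inp2, Cyp11a1, Tmem123, Slc25a30 and Fosl2 (Pearson r 0.89 to 0.96 in either cohort). The part of luteal tissue in the Prlr values was not tested, nor was that of litter history in the older ovary values.

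Of 20 luteal genes of prolactin action and steroidogenesis, 7 fell and 0 rose in young and likewise in older 200M ovary (medians -0.48 and -1.47, all genes 0.01 and 0.04), where 2.58% and 2.71% of all genes were called. Akr1c18, the enzyme that inactivates progesterone, averaged 83.1 CPM in young WT and 6.64 CPM in young 200M, and 1812 against 4.05 CPM in older mice. Hsd17b7, once named for its association with the prolactin receptor, fell by 0.83 and 1.59 on the log2 scale. Timp1, a protease inhibitor, fell by 0.97 and 2.57. Sfrp4, a secreted Wnt modulator, fell in older 200M (-6.68, adjusted p = 0.000378) and differed by -2.28 in young mice (adjusted p = 0.171), and the cohorts differed by -4.41 (SE 1.18), which was not called.

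Of 23 genes of prolactin receptor signalling, 2 fell and 0 rose in young 200M ovary and 1 fell in older (medians -0.05 and -0.19, all genes 0.01 and 0.04), where 2.58% and 2.71% of all genes were called. Cish, a STAT5 target and feedback inhibitor, fell in both, from 11.7 to 5.1 CPM in young (adjusted p = 0.0496) and from 81 to 11.6 CPM in older mice (adjusted p = 0.00972). Stat5a fell in young mice (-0.45, adjusted p = 0.0492) and was not called in older (-0.27, adjusted p = 0.429), with no called difference between cohorts (0.16, SE 0.218). Th in ovary was 2.13 to 3.04 CPM in young WT and 2.91 to 3.71 CPM in young 200M, and was not called in any comparison.

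**Figure D4:**
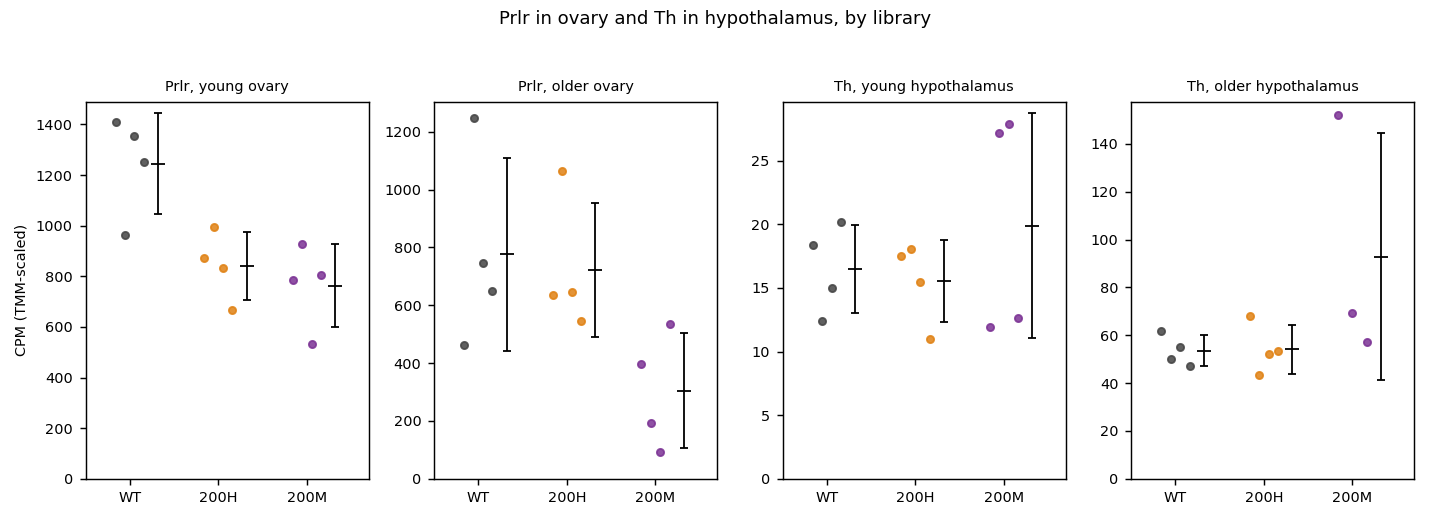
Prlr in ovary and Th in hypothalamus in every library of young and older mice, as TMM-scaled CPM on a linear axis from 0, with the mean and SD of 3 or 4 libraries. Young 200M ovaries (534 to 929 CPM of Prlr) lie below young WT (962 to 1410 CPM), and 1 older 200M hypothalamus stands apart at 152 CPM of Th.

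Per kilobase of annotated exon, the order of the 6 genes in young WT pituitary was Prl (101083 ± 9743 CPM per kb, SD, n = 3), Drd2 (42 ± 1.04), Gal (30.5 ± 15.8), Prlr (12.9 ± 2.2), Vip (0.541 ± 0.217) and Th (0.168 ± 0.076). Drd2 and Gal did not differ beyond their spread. In young WT ovary Prlr led at 81.1 ± 13 CPM per kb (SD, n = 4). In young WT hypothalamus Prl, Gal, Prlr, Th and Drd2 lay within 5.55 to 12.4 CPM per kb, with SDs of 0.994 to 6.68, and Vip was lower at 1.73 ± 0.474.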

How the data were processed

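RNA was sequenced from pituitary, hypothalamus and ovary. The authors aligned reads with STAR to mm10 and deposited raw counts per gene, made with htseq-count for older pituitary and hypothalamus and with featureCounts for the rest. Older libraries were poly(A)-selected and counted without strand, and young libraries were rRNA-depleted and counted with strand, so levels were not compared between cohorts. The deposited fold changes and p-values of the authors' own DESeq2 comparisons were not used. A header in young pituitary repeats a WT name, so 3 count columns were not used and those libraries were read from the other table. A WT library there has a number that its title does not give.

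Counts were tested with edgeR 4.0.16 (R 4.3.3): filterByExpr, TMM scaling, quasi-likelihood F-tests and Benjamini-Hochberg adjustment over all genes tested, each pair of genotypes by itself, with interaction terms between tissues or cohorts. An SE was taken as log2 fold change divided by root F. Alternatives included DESeq2 1.42.0. The fits were tested on simulated data. In 99 pairs of libraries of a group, counts differed by at least 1.87 times the sampling variance. Members and lists were chosen with earlier results of these data known. Named list genes were those called in 200M against WT in both cohorts, then in 1, by smallest p, up to 4 a list.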

Additional observations from a re-analysis of the deposited data

Results flagged for a closer look

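Differences of the 200M effect between tissues or cohorts were found by interaction terms in edgeR. Between pituitary and hypothalamus these were 1.65 for Gal, 1.68 for Vip and 0.62 for Prlr in young mice, and 1.24 for Gal, 1.35 for Prlr, -0.66 for Drd2 and -5.25 for Prl in older mice. Between pituitary and ovary the difference was 1.39 for Prlr in young mice. Between older and young hypothalamus it was 6.46 for Prl, beside the Gh values given above.

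In 66 groups of 4 libraries, 3 held a library far from the others by Dixon's test, where chance gives about 1 in 20. Drd2 was 8.66 CPM in young 200H hypothalamus replicate 4, Gal was 6.1 CPM in young 200M hypothalamus replicate 3, and Th was 4.71 CPM in young 200H ovary replicate 4.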

How the results depend on the processing

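Values here are log2 differences. In pituitary the fall of Prl in both mutant genotypes, and the rises of Gal and Prlr in 200M, kept direction and call under all alternatives in both cohorts. Young Vip in 200M was not called with the 3 genotypes in 1 fit (1.29) and ranged from 0.89 to 1.68 with a library left out. Young Th in 200M was not called with no filter (1.53) or with 3 genotypes in 1 fit (1.48), and ranged from 1.18 to 1.81. Young 200H Drd2 on plain totals was -0.25, and young 200H Gal ranged from 1.29 to 2.23. Older Drd2 became called in 200M with no filter (-0.29) and in 200H with DESeq2 size factors, no filter, DESeq2 or 3 genotypes in 1 fit (-0.43 in each), ranging from -0.50 to -0.31, past the threshold without 200H replicate 3. Older 200H Prlr was not called on totals without Prl and Gh (0.46), ranging from 0.35 to 0.54. The causes were not tested.

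Young hypothalamic Prl was not called with DESeq2 (200M -2.92, 200H -2.87) or 3 genotypes in 1 fit (-2.86 and -2.85), and 200M ranged from -3.19 to -2.53. Older hypothalamus with no filter gave called values for Prl (200M 3.60, 200H 3.76), Prlr (200M -0.61) and Th (200M 0.78), and between 200M and 200H for Vip (0.62), Prlr (-0.42) and Th (0.77). In older pituitary it did so between 200M and 200H for Prl (-0.46), Gal (-0.60), Vip (1.18) and Th (1.55). Older 200M Prl ranged from 3.22 to 5.26 and was called without WT replicate 1 or 3 or 200M replicate 1. Young ovarian Prlr in 200M was not called with 3 genotypes in 1 fit (-0.70), ranging from -0.81 to -0.56. In young 200H it was called with no filter (-0.60) and DESeq2 (-0.58), and in older 200M with DESeq2 (-1.37).

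Of the tissue differences, older Drd2 was -0.52 on plain totals and ranged from -0.82 to -0.42, not called without pituitary WT 3 or 4, pituitary 200M 1 or 2, hypothalamus WT 2, 3 or 4, or hypothalamus 200M 1 or 3. Older Gal ranged from 1.01 to 1.56, not called without pituitary WT 1, pituitary 200M 1 or 3, or hypothalamus 200M 1 or 3. Young Vip ranged from 1.26 to 2.05, not called without pituitary WT 1, the WT library whose header number its title does not give, pituitary 200M 3, hypothalamus WT 1 or 2, or hypothalamus 200M 3.

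Within a tissue the replicate numbers did not pair the mice by their values: in no comparison of genotypes did every pair of same-numbered libraries correlate above 0.1 (-0.629 to 0.423). Nor did they between pituitary and the other tissues within a genotype (-0.121 to 0.26), although in young 200H all 4 pituitary libraries correlated best with the hypothalamus library of their own number. A block across tissues, added after seeing the data, gave uncalled differences between pituitary and hypothalamus in young mice for Vip (1.79), Prlr (0.51) and Drd2 (0.07, changed in sign). In older mice it gave called ones for Th from hypothalamus (1.94) and Prlr from ovary (2.66). With a replicate block within a tissue, calls were lost for young Vip (0.91) and Th (1.51), older 200H Prlr (0.46) and young ovarian Prlr (-0.72), and gained for older 200H Drd2 (-0.42). No other call against WT in the results above changed with the block.

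Values that changed sign were uncalled in every fit. For 200M against 200H with the block they were 0.00 (Prl) and 0.03 (Gal) in young pituitary, 0.09 and 1.09 (Prl) in young and older hypothalamus and -0.04 (Th) in older ovary. Prl in young hypothalamus was 0.02 on plain totals and without Prl and Gh. Gal in young 200M hypothalamus against WT was 0.00 with DESeq2 size factors or no filter and -0.01 with DESeq2. With a library left out, such values ranged as follows. For 200M against 200H in young mice, pituitary Prl went from -0.20 to 0.13 and Gal from -0.33 to 0.36, and hypothalamic Prl from -0.43 to 0.73, Gal from -0.23 to 0.00 and Prlr from -0.12 to 0.12. In older mice hypothalamic Prl went from -0.52 to 0.95, Gal from -0.09 to 0.31 and ovarian Th from -0.41 to 0.22. For 200M against WT, Gal in hypothalamus went from -0.11 to 0.12 in young and from -0.32 to 0.08 in older mice, young hypothalamic Prlr from -0.08 to 0.16 and older ovarian Th from -0.13 to 0.60. For 200H against WT, young hypothalamus gave -0.04 to 0.24 for Drd2, 0.00 to 0.12 for Prlr and -0.20 to 0.04 for Th, and older hypothalamus -0.12 to 0.11 for Th. In ovary 200H Th went from -0.05 to 0.32 in young and from -0.02 to 0.59 in older mice, and older Prlr from -0.35 to 0.23. The cohort difference of the 200M effect went from -0.34 to 0.08 for hypothalamic Gal, -0.47 to 0.25 for ovarian Th, and in pituitary -0.19 to 0.13 for Prl and -0.15 to 0.14 for Prlr.

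Counts of genes called over all genes moved by more than 1.5 times in most comparisons, for causes not tested. With no filter they were 130 against 7 (200M against 200H) in young pituitary, 30 against 3 (200M), 10 against 3 (200H) and 13 against 0 (200M against 200H) in young hypothalamus, and 845 against 497, 241 against 1 and 45 against 0 in young ovary in the same order. In older mice they were 549 against 18 (200M against 200H) in pituitary, 1079 against 1, 97 against 0 and 1325 against 0 in hypothalamus, and 1 against 0 (200H) in ovary. DESeq2 gave 46 and 122 between 200M and 200H in young and older pituitary, 0 (200M) and 1 (200H) in young and 619 (200M), 5 (200H) and 668 (200M against 200H) in older hypothalamus, 74 in young 200H ovary, and 1329 against 482 (200M), 21 against 0 (200H) and 864 against 288 (200M against 200H) in older ovary. With 3 genotypes in 1 fit they were 12 and 11 between 200M and 200H in young and older pituitary, 0 in young 200H and in older 200M hypothalamus, and 109 and 815 in young and older 200M ovary. The block gave 0 between 200M and 200H in young pituitary, 11 in young and 2 in older 200M hypothalamus, 1 between older 200M and 200H hypothalamus, 150 and 0 in young 200M and 200H ovary, and 101 (200M) and 77 (200M against 200H) in older ovary. Totals without Prl and Gh gave 11 between 200M and 200H in young pituitary, and plain totals 2847 against 1825 in older 200H pituitary. With a library left out, the count went as low as 1196 in young 200H pituitary (without the WT library whose header number its title does not give), 1867 in older 200M (without 200M replicate 3) and 1159 in older 200H pituitary (without WT replicate 2). It went from 112 (without 200M replicate 1) to 1214 (without 200M replicate 2) in young 200M ovary, down to 87 (without WT replicate 2) in older 200M ovary and 77 (without 200M replicate 1) against 200H, and up to 265 (without WT replicate 1) in older 200M hypothalamus and 407 (without 200H replicate 2) between 200M and 200H in older pituitary.

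Young hypothalamus, with 3.32 to 5.14 (1e6 counts) a library, had the lowest depth, and its Prl values of 0 to 24.5 CPM rest on few counts.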
